A study of Mus musculus with 35 samples.

Results

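The lungs of untreated young mice were compared between the day labels 7 and 5, over 12 whole-lung RNA libraries of the 35 in the series. The day 7 lungs are 3 libraries from KO mice (RORaf/fIl7riCre, a Cre recombinase at the Il7r locus acting on a floxed Rora gene) and 3 from controls (RORaf/f, the floxed gene with no Cre named). The day 5 lungs are again 3 libraries from KO mice and 3 from controls. All 12 mice carry the floxed Rora alleles, and none had received naphthalene, the airway toxicant given to the treated mice of the series. The series gives one age, 14 days, for its mice, and does not state what the day label counts in mice that were not treated. Il7r, and so the Cre, is used by lymphoid cells and their progenitors, which are few in whole lung, so that Rora of most lung cells is not the target. The labels do not say whether libraries came from separate litters, and p-values measure the spread between these libraries.

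At about this age the mouse lung is finishing its main period of septation, in which saccules are divided by new walls. Fibroblasts and myofibroblasts lay down collagen and elastin, alveolar type 2 cells make surfactant and give rise to the flat type 1 cells, and the capillary bed is remodelled. Immune cells fill the lung over the same weeks. Some genes answer within minutes to hours: immediate early genes are switched on within minutes of a stimulus, heat shock genes follow protein stress, glucocorticoid targets follow the adrenal hormone, and clock genes follow the time of day.

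Library totals were 14.51 to 21.06 M counts at day 7 and 13.08 to 19.13 M counts at day 5. Levels are CPM, counts scaled to the library total times the TMM scaling factor of that library, whereas shares in percent are of the plain library total. On the CPM scale 1 read was worth at most 0.0711 CPM at day 7 and 0.0715 CPM at day 5. Rora, the targeted gene, was at 39.5, 49.3 and 58.5 CPM in KO lungs (lowest, median and highest of 6), against 42.1, 46.0 and 50.2 CPM in control lungs, so whole-lung RNA does not check the genotype labels. The day 5 control replicate 1 stood apart: P2ry12, a microglial receptor, was at 156 CPM there, against 1.20 to 2.42 CPM in the 6 day 7 lungs and 1.63 to 3.25 CPM in the other 5 day 5 lungs. The summed level of the 9 tested microglial genes was 931 CPM in that library, against 304 to 488 CPM in day 7 lungs and 189.6 to 319 CPM in the other day 5 lungs, and the comparison is given with and without it. The submitters' library names hold a letter, which is p in all 6 day 7 libraries, f in 4 day 5 libraries and o in the other 2 (KO replicate 2 and control replicate 1, the library with microglial transcripts). The day 5 control replicate 2 stood apart together with replicate 1 on the first principal component of log2 CPM over the 12 libraries, which held 33.8% of the variance: the day 7 libraries lay at 7.2 to 44.6, the day 5 control replicates 1 and 2 at -64.5 and -63.8, and the other 4 day 5 libraries at -25 to -3.01. The nuclear RNA Neat1 took 0.0824 to 0.161% of the counts in day 7 lungs, 0.267 and 0.233% in those 2 day 5 libraries and 0.0991 to 0.203% in the other day 5 lungs. Host genes of small nucleolar RNAs took 0.0344 to 0.0491% in day 7 lungs, 0.0684% in each of those 2 and 0.0386 to 0.0559% in the other day 5 lungs. What the letter stands for is not stated, and at day 7 against day 5 it cannot be told apart from the day label. The ribosomal RNA locus Rn18s-rs5 took 1.32 to 8.12% of the counts at day 7 and 0.865 to 3.76% at day 5. Markers of the labelled tissue were high in all 12 libraries, with Sftpc, the surfactant protein of type 2 cells, at 9043 to 19821 CPM in day 7 lungs and 4776 to 13086 CPM in day 5 lungs.

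Of 18475 genes tested with genotype as a covariate, 3110 (16.8%) passed an adjusted p of 0.05 between day 7 and day 5. The 1438 genes that were higher at day 7 (7.78%) had a median log2 change of 0.68, and the 1672 that were lower (9.05%) had one of -0.70. At least 2-fold changes were seen in 281 and 339 of them. All 6 day 7 libraries lay above all 6 day 5 libraries for 387 of the tested genes (2.09%) and below them for 736 (3.98%). Without the day 5 control replicate 1, 2316 of 18999 genes passed (12.2%), 986 higher (5.19%) and 1330 lower (7%). Of the 3110 genes, 2134 were among them, which is 68.6% of the first set and 92.1% of the second. With the day 5 control replicates 1 and 2 both left out, which leaves 1 day 5 control library, 954 of 19978 genes passed (4.78%), 320 higher and 634 lower, and 866 of these were among the 3110. The part of these libraries' RNA make-up in the calls was not tested. The lists below are counted against the 7.78% and 9.05% of all tested genes that rose and fell. Where the calls of a list described below differ by over 1.5 times without that library, both are printed. Whole lung is a mixture, so fewer cells of a type and less RNA per cell cannot be told apart here. In what follows, values are CPM, given as the lowest, the median and the highest of the 6 libraries of a day, and changes are log2 of day 7 over day 5 with their standard error. A gene is said to have kept its call if it passed with each of the 12 libraries left out in turn.

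**Figure D1:**
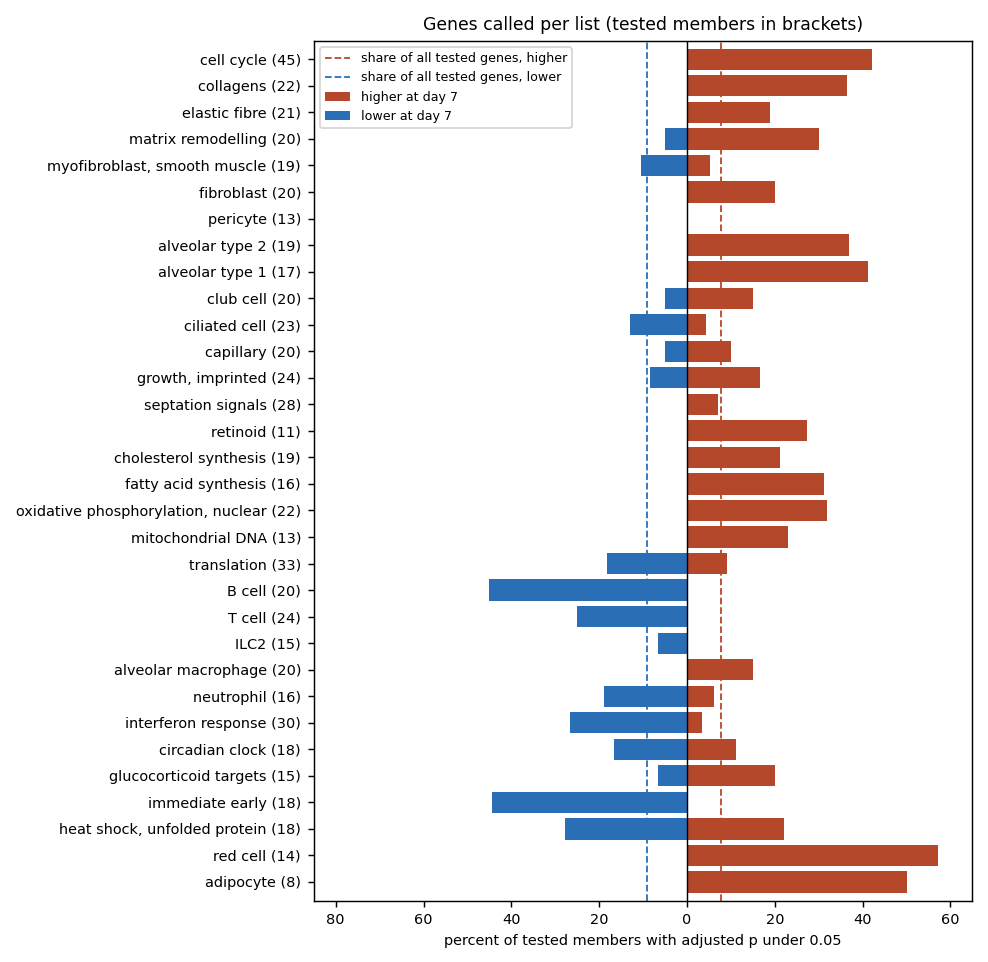
Share of the tested members of 32 gene lists that passed an adjusted p of 0.05 between day 7 and day 5, with genes higher at day 7 drawn to the right and genes lower at day 7 to the left (percent, tested members in brackets). The dashed lines mark the shares over all 18475 tested genes, 7.78% higher and 9.05% lower; the cell cycle, alveolar, matrix and red cell bars run to the right and the B cell, interferon and immediate early bars to the left.

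Several immediate early genes were lower at day 7. Of 18 tested members, 8 fell and none rose (9.05% and 7.78% of all tested genes), with a median log2 change of -0.47 over the list, against 0.01 over all tested genes. Atf3, a stress-induced transcription factor of the ATF/CREB family, had the smallest p of the whole comparison. It was at 3.74, 4.44 and 7.21 CPM at day 7, against 19.04, 21.1 and 28.9 CPM at day 5. Every day 7 lung was below every day 5 lung, in both genotypes, and the log2 change was -2.16 ± 0.17 (SE), adjusted p = 1.92e-05. Nr4a1, an orphan nuclear receptor induced within minutes by many stimuli, was at 29.3, 39.97 and 55.2 CPM at day 7, against 116, 169.8 and 338 CPM at day 5. Again no day 7 library reached the day 5 range, and the log2 change was -2.26 ± 0.24 (SE), adjusted p = 0.000283. Its relative Nr4a2 was at 9.46, 11.5 and 19.3 CPM at day 7, against 24.4, 29.3 and 57.1 CPM at day 5, with a log2 change of -1.45 ± 0.22 (SE), adjusted p = 0.00326 and no overlap.

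Dusp1, a phosphatase that switches off MAP kinases and is itself an early target of them, was at 241, 256 and 324 CPM at day 7, against 341, 459 and 653 CPM at day 5 (-0.78 ± 0.14 (SE), adjusted p = 0.00453), with the groups apart. Egr3 (log2 change -1.38 ± 0.300), Klf6 (-0.59 ± 0.15) and the AP-1 subunits Fos (-0.58 ± 0.17) and Fosb (-0.75 ± 0.23) made up the rest of the 8, and their groups overlapped. The remaining receptor of the family, Nr4a3, was named among the largest decreases and was at 8.08, 9.802 and 15.3 CPM at day 7, against 13.05, 30.7 and 52.8 CPM at day 5. Nr4a3 changed by -1.64 ± 0.29 (SE), adjusted p = 0.0048. At day 5 it was at 29.2 to 52.8 CPM in the letter f and 13.05 and 19.6 CPM in the letter o libraries. Against letter o alone Nr4a3 (-0.632, adjusted p = 0.117), Dusp1 (-0.531, 0.065), Klf6 (-0.423, 0.179) and Fosb (-0.715, 0.109) did not pass. Atf3, Nr4a1, Nr4a2, Egr3 and Fos passed there. The list's count that fell was 6 against letter f alone and 6 against letter o alone. Atf3, Nr4a1, Nr4a2, Dusp1, Egr3 and Klf6 kept their calls, whereas Fos lost its call in 4 of the 12 fits, with the highest adjusted p of 0.0726 without the day 7 control replicate 1, and Fosb in 8 of the 12 fits, with the highest adjusted p of 0.0831 without the day 7 control replicate 1. Over those fits the list's count of genes that fell was 6 to 8, the lowest without day 7 KO replicate 3, day 7 control replicates 1 and 2 and day 5 control replicate 1 (8 without the day 5 control replicates 1 and 2 together). The most abundant members, Jun (-0.15 ± 0.14 (SE), adjusted p = 0.477) and Jund (-0.34 ± 0.36 (SE), adjusted p = 0.533), did not pass.

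The promoters of Atf3, Nr4a1 and Nr4a2, whose days did not overlap, are shown because they hold the core of the cAMP response element, TGACG, which ATF/CREB proteins bind. They are from RefSeq on GRCm38.p6, 300 bases each, 5′ to 3′ on the gene's strand, with TGACG or its reverse complement CGTCA in capitals.
Atf3: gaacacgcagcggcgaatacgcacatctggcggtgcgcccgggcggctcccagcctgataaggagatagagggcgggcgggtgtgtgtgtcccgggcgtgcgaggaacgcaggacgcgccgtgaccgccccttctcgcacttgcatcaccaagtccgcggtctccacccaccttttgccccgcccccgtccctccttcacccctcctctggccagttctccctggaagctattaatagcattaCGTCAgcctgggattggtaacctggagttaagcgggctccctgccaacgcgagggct
Nr4a1: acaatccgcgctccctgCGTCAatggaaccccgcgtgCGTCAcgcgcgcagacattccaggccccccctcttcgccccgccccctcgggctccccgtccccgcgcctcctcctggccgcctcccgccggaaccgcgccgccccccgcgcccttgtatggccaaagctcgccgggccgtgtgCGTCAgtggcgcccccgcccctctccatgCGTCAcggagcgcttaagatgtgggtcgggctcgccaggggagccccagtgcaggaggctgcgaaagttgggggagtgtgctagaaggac
Nr4a2: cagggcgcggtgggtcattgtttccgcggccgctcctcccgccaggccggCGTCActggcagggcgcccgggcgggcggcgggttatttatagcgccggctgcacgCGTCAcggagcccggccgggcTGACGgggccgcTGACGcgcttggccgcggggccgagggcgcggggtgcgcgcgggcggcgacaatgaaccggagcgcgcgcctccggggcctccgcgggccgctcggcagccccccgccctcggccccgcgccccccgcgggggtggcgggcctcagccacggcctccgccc
The Atf3 promoter (GRCm38.p6 chr1:191183284-191183583, minus strand) holds 1 match, and the Nr4a1 (chr15:101266596-101266895, plus strand) and Nr4a2 (chr2:57123954-57124253, minus strand) promoters 4 each. Of the 18 list members, 15 had a RefSeq promoter in the table and 10 of these held TGACG on either strand in at least 1 promoter, as did 6228 of the 27025 genes in the table. The 8-base palindrome TGACGTCA stood in 3 of the 15, and in 549 of all 27025 genes (2.03%); of the 7 matched members that fell it stood in Dusp1. A match describes the sequence and not a bound site.

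Genes outside the list that respond fast to stimulation were also named by the rule. Arid5a, an RNA-binding protein that stabilises inflammatory mRNAs, was at 19.7, 23.7 and 34.6 CPM at day 7, against 57.5, 63.9 and 74.8 CPM at day 5 and fell with a log2 change of -1.39 ± 0.14 (SE), adjusted p = 0.000255. Apold1, an early response gene of endothelial cells, was at 4.28, 4.99 and 7.403 CPM at day 7, against 10.4, 17.5 and 26.8 CPM at day 5. Apold1 changed by -1.67 ± 0.197 (SE), adjusted p = 0.00102. In both genes the days did not overlap and the call was kept. Klf4 and Klf2, which endothelial cells raise under flow, fell as well; their list, factors of early lung growth, had 4 of 19 genes higher and these 2 lower. Klf4 was at 123, 145 and 186 CPM at day 7, against 151, 298 and 381 CPM at day 5 (-0.94 ± 0.201 (SE), adjusted p = 0.00875) and Klf2 at 406, 569.9 and 728 CPM at day 7, against 543, 995 and 1258 CPM at day 5. Klf2 changed by -0.76 ± 0.19 (SE), adjusted p = 0.0169. Their ranges overlapped, and against the letter o libraries alone Klf4 changed by -0.303 (adjusted p = 0.322).

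Il1b, the cytokine interleukin 1 beta, was lower too, and was the 1 of 16 alarmin and interleukin 1 genes to fall. It was at 2.24, 3.51 and 5.97 CPM at day 7, against 6.31, 12.4 and 30.2 CPM at day 5, with no overlap and a log2 change of -1.89 ± 0.36 (SE), adjusted p = 0.00522. Of 19 genes of monocytes and interstitial macrophages 2 rose and 2 fell, near the shares of all tested genes. Without the day 5 control replicate 1 it was 1 and 1, and the list's median was 0.02, against -0.30 with it. Of 16 tested neutrophil genes, 3 fell and 1 rose, and the count that fell was, over the 12 fits, 1 to 3, the lowest without day 7 control replicate 1 (1 without the day 5 control replicates 1 and 2 together). Cxcr2, the chemokine receptor that draws neutrophils out of the marrow, was at 1.56, 2.21 and 4.48 CPM at day 7, against 3.72, 5.28 and 7.14 CPM at day 5. Cxcr2 changed by -1.14 ± 0.23 (SE), adjusted p = 0.00763. Csf3r, the receptor for G-CSF, was at 24.6, 30.3 and 49.00 CPM at day 7, against 32.6, 62.3 and 93.5 CPM at day 5. Csf3r changed by -0.97 ± 0.25 (SE), adjusted p = 0.0169. In Cxcr2 1 library of each day overlapped, and in Csf3r 3 day 7 and 2 day 5 libraries. Lcn2, a siderophore-binding protein that airway cells also make, went the other way (0.91 ± 0.23). Csf3r lost its call without the day 7 control replicate 1 (adjusted p = 0.0509). Lag3, an inhibitory receptor of T cells, was at 3.46, 4.83 and 5.97 CPM at day 7, against 6.32, 12.3 and 27.2 CPM at day 5, with a log2 change of -1.55 ± 0.29 (SE), adjusted p = 0.00558 with no overlap, and its adjusted p was 0.00892 without the library with microglial transcripts.

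Several heat shock and clock genes showed a second pattern, in which the day 5 libraries themselves were divided by the letter in their names. Hspa1a, the inducible HSP70 chaperone, ran from 7.14 to 16.8 CPM in the day 7 libraries, 40.2 to 75.7 CPM in the 4 letter f day 5 libraries and 9.45 to 9.79 CPM in the 2 letter o day 5 libraries. The letter o libraries thus lay within the day 7 range and the letter f libraries above it. The same held for Hsph1, an HSP110 co-chaperone, at 41.5 to 70.5 CPM in the day 7 libraries, 123 to 237 CPM in the 4 letter f day 5 libraries and 46.9 to 53.03 CPM in the 2 letter o day 5 libraries. For 9 of the 18 clock genes both letter o libraries lay within the day 7 range, as they did for 6255 of all 18475 tested genes. Bmal1, which drives the positive arm of the circadian clock, was at 4.89 to 9.42 CPM in the day 7 libraries, 21.4 to 28.6 CPM in the 4 letter f day 5 libraries and 3.78 to 5.503 CPM in the 2 letter o day 5 libraries. Nr1d1, which encodes the repressor REV-ERB alpha and is high when Bmal1 is low, was at 67.9 to 214 CPM in the day 7 libraries, 27.8 to 55.03 CPM in the 4 letter f day 5 libraries and 89.3 to 101 CPM in the 2 letter o day 5 libraries. Hlf, an output gene of the clock, was at 54.6 to 79.8 CPM in the day 7 libraries, 14.7 to 27.7 CPM in the 4 letter f day 5 libraries and 53.03 to 65.2 CPM in the 2 letter o day 5 libraries. In Bmal1 and Hlf the lower of the 2 letter o libraries lay below the day 7 range. In Nr1d2 and Per3 both letter o libraries lay outside the day 7 range, on the far side from letter f. Nr1d2, which encodes REV-ERB beta, was at 117 to 181 CPM in the day 7 libraries, 59.2 to 109.6 CPM in the 4 letter f day 5 libraries and 206 to 216 CPM in the 2 letter o day 5 libraries. The repressor Per3 was at 103 to 173 CPM in the day 7 libraries, 62.4 to 88.4 CPM in the 4 letter f day 5 libraries and 206 to 223 CPM in the 2 letter o day 5 libraries.

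**Figure D2:**
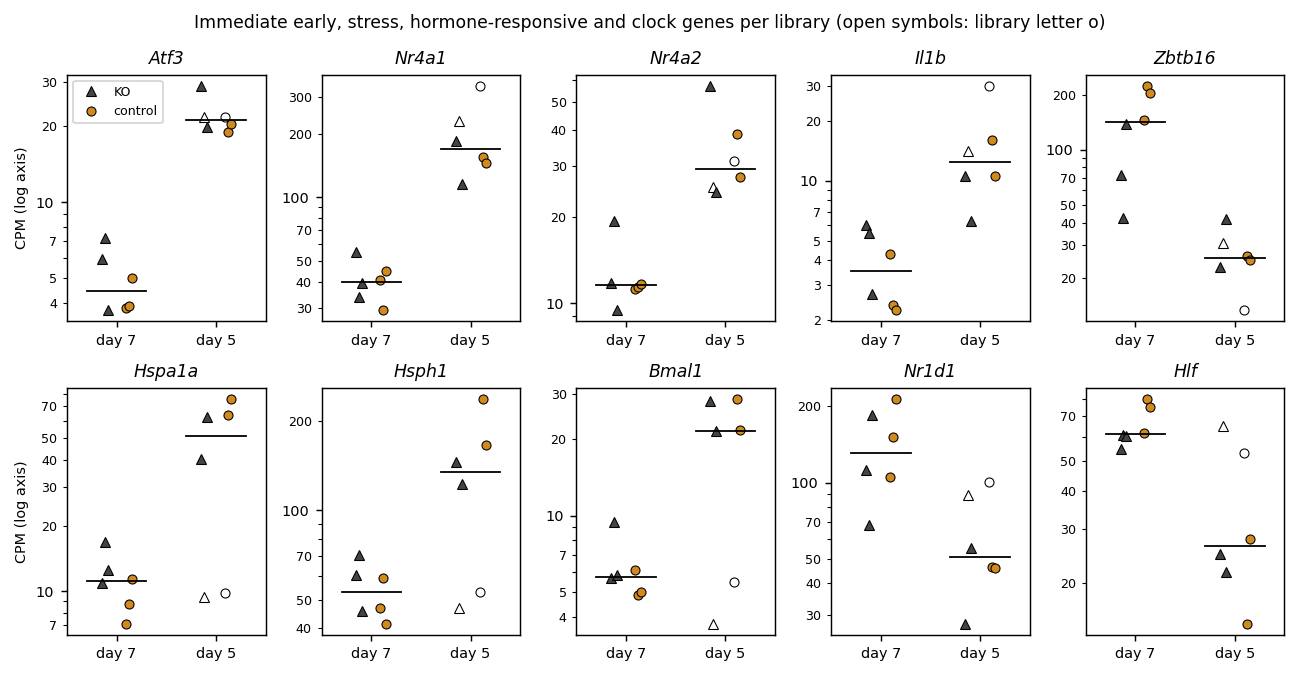
CPM (log axis) of 10 genes in each of the 12 untreated libraries, day 7 left of day 5, triangles for KO and circles for control lungs, open symbols for the 2 day 5 libraries with the letter o and black lines for the median of each day. For Atf3, Nr4a1, Nr4a2 and Il1b all day 5 libraries lie above all day 7 libraries whatever their letter, whereas for Hspa1a, Hsph1, Bmal1 and Hlf the open symbols lie at or near the day 7 level.

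The output gene Tef (0.48 ± 0.24 (SE), adjusted p = 0.172) and the repressor Per1 (-0.003 ± 0.17 (SE), adjusted p = 0.993), the most abundant clock genes, did not pass. With all 12 libraries, 3 of 18 tested clock genes fell, 2 rose and the list's median change was -0.001. Without the day 5 control replicate 1, 4 rose. The count that rose was, over the 12 fits, 0 to 5, the lowest without day 7 KO replicate 3, day 7 control replicate 3 and day 5 control replicate 2 (0 without the day 5 control replicates 1 and 2 together), and the count that fell 0 to 4, the lowest without day 7 KO replicate 3, day 7 control replicates 1, 2 and 3 and day 5 control replicate 2 (1 without the day 5 control replicates 1 and 2 together). Bmal1 fell (-1.57 ± 0.42 (SE), adjusted p = 0.0217), as did Nfil3, a repressor of clock output (-0.96 ± 0.29 (SE), adjusted p = 0.0327), and Ciart, a repressor of the clock (-0.69 ± 0.21 (SE), adjusted p = 0.0373). Nr1d1 (1.18 ± 0.303 (SE), adjusted p = 0.0182) and Hlf (0.92 ± 0.29 (SE), adjusted p = 0.0421) rose. Against the 4 letter f libraries alone, 8 clock genes rose and 3 fell. Against the 2 letter o libraries alone, none rose, 1 fell, and the log2 change was 0.38 (adjusted p = 0.405) for Bmal1 and 0.24 (adjusted p = 0.562) for Nfil3. The letters f and o did not overlap at day 5 for 12 of the 18 clock genes and for 9 of the 18 heat shock and unfolded protein genes, against 3625 of all 18475 tested genes (19.6%). The clock calls were also lost to single libraries: Bmal1 lost its call in 6 of the 12 fits, with the highest adjusted p of 0.0701 without the day 7 control replicate 3, Nfil3 in 9 of the 12 fits, with the highest adjusted p of 0.0844 without the day 5 control replicate 2, Ciart in 6 of the 12 fits, with the highest adjusted p of 0.0988 without the day 7 control replicate 1, Nr1d1 in 3 of the 12 fits, with the highest adjusted p of 0.0593 without the day 7 KO replicate 3 and Hlf in 9 of the 12 fits, with the highest adjusted p of 0.097 without the day 7 control replicate 3.

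Bmal1 is listed in the reference under its older symbol Arntl, and its promoter is shown because the Rora protein, the product of the gene targeted in the KO mice, and REV-ERB proteins bind its AGGTCA elements. It is printed 5′ to 3′ on the gene's strand with AGGTCA or its reverse complement in capitals (RefSeq, GRCm38.p6 chr7:113207261-113207560, plus strand).
Bmal1: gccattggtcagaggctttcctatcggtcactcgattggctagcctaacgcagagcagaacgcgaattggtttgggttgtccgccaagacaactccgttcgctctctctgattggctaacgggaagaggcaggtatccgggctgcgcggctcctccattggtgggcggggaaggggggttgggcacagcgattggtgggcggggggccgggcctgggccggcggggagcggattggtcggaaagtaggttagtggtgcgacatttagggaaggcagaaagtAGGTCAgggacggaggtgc
This window holds 1 match, the table's other Bmal1 window (chr7:113207215-113207514, plus strand) holds none, and AGGTCA stood in 16.3% of all 32851 promoters. Rora itself did not pass the test between days (0.097 ± 0.12 (SE), adjusted p = 0.597), and neither did it separate the genotypes above.

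Of the 18 heat shock and unfolded protein genes, 5 fell and 4 rose, and the members that fell hold 2 kinds. Hspa1a (-1.96 ± 0.51 (SE), adjusted p = 0.0225), its near-identical neighbour Hspa1b (-1.804 ± 0.53 (SE), adjusted p = 0.0373) and Hsph1 (-1.23 ± 0.33 (SE), adjusted p = 0.0215) are cytosolic heat shock genes and followed the letters. Reads of Hspa1a and Hspa1b may be shared between the copies. Against the letter o libraries alone their log2 changes were 0.18 (adjusted p = 0.665), 0.59 (adjusted p = 0.0641) and 0.09 (adjusted p = 0.798). Hspa1a lost its call in 6 of the 12 fits, with the highest adjusted p of 0.0723 without the day 7 control replicate 3, Hspa1b in 10 of the 12 fits, with the highest adjusted p of 0.11 without the day 7 control replicate 3 and Hsph1 in 4 of the 12 fits, with the highest adjusted p of 0.0711 without the day 7 control replicate 3. Ddit3, which encodes the stress factor CHOP, was at 15.2, 20.3 and 25.1 CPM at day 7, against 31.1, 40.7 and 56.5 CPM at day 5, and fell with a log2 change of -0.99 ± 0.16 (SE), adjusted p = 0.00399. Creld2, an endoplasmic reticulum protein, was at 30.3, 32.9 and 36.04 CPM at day 7, against 40.8, 51.3 and 61.8 CPM at day 5. Creld2 changed by -0.64 ± 0.12 (SE), adjusted p = 0.00633. Ddit3 and Creld2 had no overlap between days and kept their calls. Creld2 was divided by letter as well, at 50.1 to 61.8 CPM in the letter f and 40.8 to 43.7 CPM in the letter o day 5 libraries. Against letter o alone Creld2 did not pass (-0.378, adjusted p = 0.135), whereas Ddit3 did (-0.83, adjusted p = 0.0255). The constitutive chaperone Hspa8 (-0.28 ± 0.21 (SE), adjusted p = 0.375) and Atf4 (0.01 ± 0.12 (SE), adjusted p = 0.962), the most abundant members, did not pass. Sdf2l1, a chaperone partner in the endoplasmic reticulum, rose (0.98 ± 0.19 (SE), adjusted p = 0.00577), as did Manf (0.49 ± 0.13), Trib3 (0.797 ± 0.21) and Chac1 (0.82 ± 0.22). The list's count that fell was, over the 12 fits, 2 to 6, the lowest without day 7 KO replicate 3, day 7 control replicates 1 and 3 and day 5 control replicate 2 (5 without the day 5 control replicates 1 and 2 together), and that rose 1 to 5, the lowest without day 7 KO replicate 3 and day 5 control replicate 2 (1 without the day 5 control replicates 1 and 2 together).

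Zbtb16 had the largest increase of all genes named by the rule. It encodes PLZF, a zinc finger factor that glucocorticoids induce in many tissues and that innate lymphoid precursors use. It was at 42.4, 142 and 223 CPM at day 7, against 13.3, 25.6 and 41.7 CPM at day 5, with every day 7 lung above every day 5 lung and a log2 change of 2.27 ± 0.36 (SE), adjusted p = 0.00399. The spread at day 7 was wide, and the 3 KO lungs, at 42.4, 72.8 and 138 CPM, lay below the 3 control lungs, at 146, 203 and 223 CPM. Fkbp5, the glucocorticoid-induced co-chaperone of the steroid receptor, was at 32.01, 63.4 and 118 CPM at day 7, against 12.9, 24.8 and 39.2 CPM at day 5. Fkbp5 changed by 1.29 ± 0.29 (SE), adjusted p = 0.0103. Cyp2b10, a cytochrome P450 of club cells, was at 52.2, 86.7 and 110.1 CPM at day 7, against 28.2, 49.4 and 58.01 CPM at day 5. Cyp2b10 changed by 0.83 ± 0.19 (SE), adjusted p = 0.0117. Of 15 tested glucocorticoid targets, 3 rose (1 without the day 5 control replicates 1 and 2) and 1, Dusp1, fell, with a median log2 change of 0.25. Fkbp5, Zbtb16 and Cyp2b10 kept their calls. They also passed against the letter f libraries alone. Against the letter o libraries alone Zbtb16 (2.38, adjusted p = 0.0564), Fkbp5 (1.54, 0.0661) and Cyp2b10 (0.722, 0.079) did not pass. Tsc22d3, the hormone target GILZ, did not pass (0.53 ± 0.18 (SE), adjusted p = 0.0571). After naphthalene, Zbtb16 averaged 128 CPM in treated day 7 lungs and 127 CPM in treated day 5 lungs, a log2 change of -0.01 ± 0.36 (adjusted p = 0.99).

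Proliferation genes were higher at day 7. Of 45 tested genes of DNA replication and mitosis, 19 rose and none fell (7.78% and 9.05% of all tested genes), with a median log2 change of 0.55. In all, 40 members were above 0. E2f1, the transcription factor that opens S phase, was at 16.6, 23.3 and 28.6 CPM at day 7, against 8.800, 9.79 and 14.8 CPM at day 5, with no overlap and a log2 change of 1.11 ± 0.18 (SE), adjusted p = 0.00395. Ube2c, the ubiquitin-conjugating enzyme of the anaphase-promoting complex, was at 14.5, 24.7 and 31.2 CPM at day 7, against 6.45, 10.2 and 17.01 CPM at day 5. Ube2c changed by 1.13 ± 0.197 (SE), adjusted p = 0.00429. Its ranges overlapped through the day 5 control replicate 1. Cdk1, the kinase of mitotic entry, was at 5.97, 12.2 and 14.6 CPM at day 7, against 4.56, 5.95 and 7.13 CPM at day 5. Cdk1 changed by 0.97 ± 0.19 (SE), adjusted p = 0.00615. Ccnb1, its cyclin, was at 3.63, 4.24 and 5.37 CPM at day 7, against 0.786, 2.097 and 2.91 CPM at day 5. Ccnb1 changed by 1.101 ± 0.25 (SE), adjusted p = 0.0103. Ccnb1 had no overlap, and Cdk1 overlapped through 1 day 7 library.

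Among the other members, Birc5 (0.97 ± 0.18), Pclaf (1.32 ± 0.24), Ect2 (1.202 ± 0.24), Aurkb (1.08 ± 0.24) and Hmmr (1.41 ± 0.31) rose by close to or over 2-fold. Top2a, the topoisomerase that untangles replicated DNA, rose by 0.79 ± 0.201 (SE), adjusted p = 0.0168, and Mcm2, a subunit of the replicative helicase, by 0.82 ± 0.21 (SE), adjusted p = 0.0184. The 2 members with the highest levels, Stmn1 (0.26 ± 0.12 (SE), adjusted p = 0.122) and Pcna (0.46 ± 0.16 (SE), adjusted p = 0.0524), did not pass. Among genes named by the rule, 3 belong to the same process: Mxd3, a Myc-network factor of S phase (means 5.25 ± 2.61 CPM in day 7 lungs and 1.82 ± 0.4597 CPM in day 5 lungs), Pbk, a mitotic kinase (1.42 ± 0.27), and Wee1, the kinase that restrains Cdk1 (0.895 ± 0.14). Each of them had no overlap between days. E2f1, Ube2c, Cdk1, Ccnb1, Birc5, Pclaf, Ect2, Aurkb and Hmmr kept their calls. Top2a lost its call without the day 7 KO replicate 3 (adjusted p = 0.053), and Mcm2 in 3 of the 12 fits, with the highest adjusted p of 0.0533 without the day 7 control replicate 1. Over the 12 fits that left out 1 library the count was 10 to 21, the lowest without day 7 KO replicate 3 (9 without the day 5 control replicates 1 and 2 together). It was 21 against the letter f libraries alone and 3 against the 2 letter o libraries alone.

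**Figure D3:**
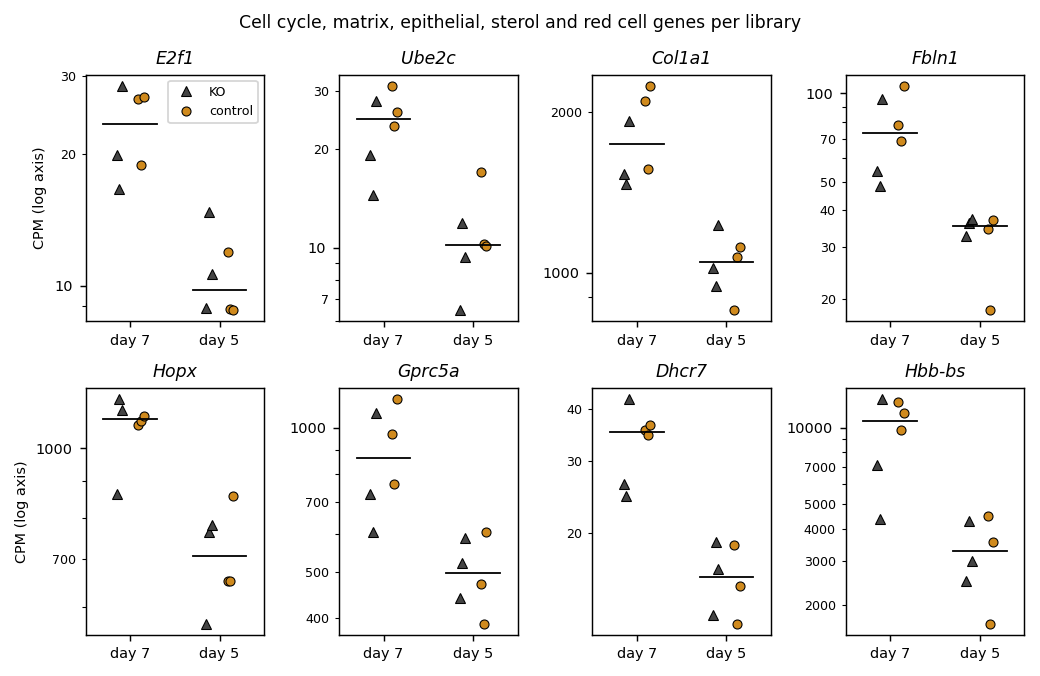
CPM (log axis) of 8 genes of the cell cycle, matrix, epithelium, sterol synthesis and red cells in each of the 12 untreated libraries, day 7 left of day 5, triangles for KO and circles for control lungs and black lines for the median of each day. The day 7 libraries of E2f1, Col1a1, Fbln1, Hopx and Dhcr7 all lie above the day 5 libraries, and in each of these genes the lowest day 7 value is from a KO lung.

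Interstitial matrix genes were higher at day 7. Of 22 tested collagen chains, 8 rose and none fell, with a median log2 change of 0.44. Without the day 5 control replicate 1 the count was 4. Col1a1, the main chain of fibrillar collagen I, was at 1469, 1747 and 2243 CPM at day 7, against 849, 1045 and 1228 CPM at day 5, with no overlap and a log2 change of 0.79 ± 0.15 (SE), adjusted p = 0.00587. Col15a1, a basement membrane zone collagen, was at 30.5, 48.6 and 62.7 CPM at day 7, against 21.8, 24.7 and 27.95 CPM at day 5 (0.89 ± 0.16 (SE), adjusted p = 0.00453), again with the days apart. Col14a1, which decorates collagen fibrils, was at 32.6, 53.4 and 70.9 CPM at day 7, against 20.7, 29.99 and 32.96 CPM at day 5. Col14a1 changed by 0.89 ± 0.18 (SE), adjusted p = 0.00652. These 3 and Col12a1 (0.59 ± 0.14) kept their calls, and they are the 4 that remained without that library. Col1a2 rose (0.48 ± 0.14 (SE), adjusted p = 0.0303) and lost its call in 8 of the 12 fits, with the highest adjusted p of 0.088 without the day 7 control replicate 1. The basement membrane chains with the highest levels, Col4a1 (0.19 ± 0.24 (SE), adjusted p = 0.595) and Col4a2 (0.51 ± 0.27 (SE), adjusted p = 0.186), did not pass. Col4a2 passed against letter o alone, with 1.17 (adjusted p = 0.031). Against the letter f libraries alone 4 chains rose, and against the letter o libraries alone 8. The letters f and o were apart at day 5 for 7 of the 22 (31.8%), against 19.6% of all tested genes. The count of chains that rose was, over the 12 fits, 4 to 9, the lowest without day 7 KO replicate 3, day 7 control replicates 1, 2 and 3, day 5 KO replicate 2 and day 5 control replicates 1 and 2 (3 without the day 5 control replicates 1 and 2 together).

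Elastic fibre genes gave fewer calls. Of 21 tested, 4 rose and none fell, with a median of 0.37, and without the day 5 control replicate 1 there were 2 that rose and 1 that fell. Fbln1, a fibulin of elastic and basement membrane matrix, was at 48.2, 73.4 and 106 CPM at day 7, against 18.3, 35.5 and 37.5 CPM at day 5, with the days apart, a log2 change of 1.19 ± 0.21 (SE), adjusted p = 0.00453 and a kept call. Fbln5 (0.56 ± 0.16 (SE), adjusted p = 0.0303), which guides elastin assembly, Mfap5 (0.500 ± 0.15 (SE), adjusted p = 0.0372) and the cross-linking enzyme Loxl1 (0.53 ± 0.17 (SE), adjusted p = 0.0406) rose less. Loxl1 lost its call in 8 of the 12 fits, with the highest adjusted p of 0.115 without the day 7 control replicate 3, Fbln5 in 8 of the 12 fits, with the highest adjusted p of 0.0859 without the day 7 control replicate 1 and Mfap5 in 8 of the 12 fits, with the highest adjusted p of 0.108 without the day 7 KO replicate 3. Eln, the elastin gene itself, was at 5398, 6779 and 9586 CPM at day 7, against 2051, 6045 and 9051 CPM at day 5, and its log2 change of 0.32 ± 0.31 (SE), adjusted p = 0.485 did not pass. Without the same library it was 0.12. Against the letter f libraries alone Eln changed by -0.04 (adjusted p = 0.909), and against the letter o libraries alone by 1.49 (adjusted p = 0.0133). Leaving out each library gave a count of rises of 1 to 7, the lowest without day 7 KO replicate 3, day 7 control replicates 1 and 3 and day 5 control replicate 2 (1 without the day 5 control replicates 1 and 2 together). Mfap4, a microfibril protein, did not pass either (0.55 ± 0.23 (SE), adjusted p = 0.109), but did against letter o alone, with 1.11 (adjusted p = 0.0346).

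Of 20 fibroblast markers 4 rose and none fell (1 fell without the day 5 control replicate 1): Lum (1.07 ± 0.19 (SE), adjusted p = 0.00441) and Dcn (0.598 ± 0.15 (SE), adjusted p = 0.0151), small proteoglycans of collagen fibrils, Clec3b (0.83 ± 0.22 (SE), adjusted p = 0.0182) and Serpinf1 (0.903 ± 0.24 (SE), adjusted p = 0.0211). Lum was at 7.04, 11.3 and 12.4 CPM at day 7, against 3.74, 4.84 and 6.61 CPM at day 5, with no overlap. The most abundant members, the cytoskeletal linker Macf1 (-0.37 ± 0.199 (SE), adjusted p = 0.203), which is not particular to fibroblasts, and the methyltransferase Inmt (0.02 ± 0.15 (SE), adjusted p = 0.934), did not pass. The count of markers that rose was, over the 12 fits, 2 to 4, the lowest without day 7 KO replicate 3 (1 without the day 5 control replicates 1 and 2 together). The rule also named Clec11a, a secreted growth factor of stromal cells, at 8.05, 17.4 and 28.02 CPM at day 7, against 3.25, 4.76 and 7.68 CPM at day 5 (1.77 ± 0.29 (SE), adjusted p = 0.00381), Islr, a surface protein of mesenchymal cells, at 34.2, 41.5 and 57.8 CPM at day 7, against 16.3, 21.5 and 23.3 CPM at day 5 (1.06 ± 0.16 (SE), adjusted p = 0.00319), and Gas1, a Hedgehog co-receptor, at 71.2, 114 and 139.6 CPM at day 7, against 32.7, 49.96 and 65.7 CPM at day 5. Gas1 changed by 1.14 ± 0.18 (SE), adjusted p = 0.0035. In all 3 the days were apart. Of 20 matrix-remodelling genes, 6 rose and 1 fell, and without the day 5 control replicate 1 there were 1 and 1. Leaving out each library gave a count of rises of 1 to 6, the lowest without day 7 KO replicate 3, day 7 control replicates 1, 2 and 3, day 5 KO replicate 2 and day 5 control replicates 1 and 2 (1 without the day 5 control replicates 1 and 2 together). The proteases Adamts15 (0.86 ± 0.19 (SE), adjusted p = 0.0094) and Adamts1 (-0.804 ± 0.21 (SE), adjusted p = 0.0175) moved in opposite directions and both kept their calls. Timp2, an inhibitor of metalloproteinases, rose by 0.58 ± 0.19 (SE), adjusted p = 0.0477 and lost its call in 7 of the 12 fits, with the highest adjusted p of 0.121 without the day 5 control replicate 2. Adamts10 did not pass (-0.62 ± 0.22 (SE), adjusted p = 0.0563). Of 19 myofibroblast and smooth muscle genes 1 rose and 2 fell, and without the day 5 control replicate 1 none rose. The count that fell was, over the 12 fits, 0 to 2, the lowest without day 7 KO replicate 3, day 7 control replicates 1, 2 and 3, day 5 KO replicate 1 and day 5 control replicates 2 and 3 (1 without the day 5 control replicates 1 and 2 together). Of 13 pericyte genes none passed, with a median of -0.05. Acta2, smooth muscle actin, had 0.24 ± 0.15 (SE), adjusted p = 0.276, Pdgfra, the receptor of myofibroblast precursors, -0.47 ± 0.19 (SE), adjusted p = 0.091, and the pericyte genes Pdgfrb and Gucy1a1 -0.099 ± 0.13 (SE), adjusted p = 0.624 and -0.21 ± 0.15 (SE), adjusted p = 0.34.

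Alveolar type 1 genes were higher at day 7, with calls that depended on the day 5 control libraries. Of 17 tested, 7 rose and none fell, all 17 were above 0 and the median log2 change was 0.49. The count was 4 without the day 5 control replicate 1. Hopx, a homeodomain protein of type 1 cells, was at 862, 1100.1 and 1171 CPM at day 7, against 569, 708 and 857 CPM at day 5, with the days apart and a log2 change of 0.59 ± 0.14 (SE), adjusted p = 0.0122. Gprc5a, an orphan receptor of these cells, was at 606, 865 and 1149.6 CPM at day 7, against 389, 496 and 606 CPM at day 5. Gprc5a changed by 0.805 ± 0.18 (SE), adjusted p = 0.0094. Igfbp2, which marks mature type 1 cells, was at 185, 313 and 397 CPM at day 7, against 123, 167 and 190.4 CPM at day 5. Igfbp2 changed by 0.87 ± 0.195 (SE), adjusted p = 0.0101. In Gprc5a 1 library of each day overlapped, and in Igfbp2 1 day 7 and 2 day 5 libraries. The list's count over the 12 fits was 4 to 8, the lowest without day 7 KO replicate 3, day 7 control replicate 1 and day 5 control replicates 1 and 2 (0 without the day 5 control replicates 1 and 2 together). Its summed level was 10830 to 14980 CPM in day 7 lungs, 8172 and 8107 CPM in the day 5 control replicates 1 and 2, and 10300 to 11820 CPM in the other 4 day 5 lungs, whose range overlapped that of day 7. The water channel Aqp5 rose by 0.91 ± 0.23 (SE), adjusted p = 0.0154 and Ager, the receptor RAGE and the list's highest gene, by 0.698 ± 0.21 (SE), adjusted p = 0.0347, whereas Vegfa, the endothelial growth factor that these cells make, did not (0.03 ± 0.13 (SE), adjusted p = 0.913). Hopx, Gprc5a and Igfbp2 kept their calls. Aqp5 lost it without the day 7 KO replicate 3 (adjusted p = 0.0569), and Ager in 7 of the 12 fits, with the highest adjusted p of 0.116 without the day 7 KO replicate 3.

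Alveolar type 2 genes leaned the same way with more spread. Of 19 tested, 7 rose and none fell, with a median of 0.60, but without the day 5 control replicate 1 there were 2 that rose and 1 that fell, and over the 12 fits the count that rose was 1 to 11, the lowest without day 7 KO replicate 3 (0 without the day 5 control replicates 1 and 2 together). Scd1, a fatty acid desaturase that type 2 cells use for surfactant lipid, was at 523, 785 and 972 CPM at day 7, against 231, 397 and 650.3 CPM at day 5 (0.86 ± 0.21 (SE), adjusted p = 0.0146) and kept its call. Etv5, a factor that maintains type 2 cells, rose by 0.78 ± 0.198 (SE), adjusted p = 0.0169 and lost its call without the day 7 KO replicate 3 (adjusted p = 0.0535). Slc34a2, a phosphate transporter of their surface, rose by 1.02 ± 0.304 (SE), adjusted p = 0.0331 and lost it in 7 of the 12 fits, with the highest adjusted p of 0.0909 without the day 7 KO replicate 3. Against the letter f libraries alone 1 of the 19 rose, and against the letter o libraries alone 5. The list's summed level was 19500 to 36600 CPM in day 7 lungs, 12470 and 10990 CPM in the day 5 control replicates 1 and 2, and 17170 to 24500 CPM in the other 4 day 5 lungs. The surfactant genes Sftpc (0.67 ± 0.26 (SE), adjusted p = 0.0832) and Sftpb (0.699 ± 0.31 (SE), adjusted p = 0.124) did not pass.

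Cebpa, which drives differentiation of type 2 cells and macrophages, was at 158, 234 and 328 CPM at day 7, against 95.6, 106 and 153 CPM at day 5, with no overlap and a log2 change of 1.02 ± 0.205 (SE), adjusted p = 0.00678. Among airway cells, 3 of 20 club cell genes rose and 1 fell. The count that rose was, over the 12 fits, 0 to 6, the lowest without day 7 KO replicate 3 (0 without the day 5 control replicates 1 and 2 together). Scgb1a1, the main secreted protein of club cells, was at 9816, 13908 and 16985 CPM at day 7, against 6646, 8579 and 9971 CPM at day 5 (0.69 ± 0.19 (SE), adjusted p = 0.0224), with day 7 KO lungs at 9816, 10070.0 and 16985 CPM and day 7 control lungs at 11438, 16377 and 16665 CPM. Its call was lost in 4 of the 12 fits, with the highest adjusted p of 0.08 without the day 7 KO replicate 3. The sulfurtransferase Tst rose by 0.71 ± 0.18 (SE), adjusted p = 0.0166, the oxidase Aox3 fell (-0.44 ± 0.12 (SE), adjusted p = 0.0271) and the carbonyl reductase Cbr2 did not pass (0.45 ± 0.18 (SE), adjusted p = 0.0977). Tst lost its call without the day 7 KO replicate 3 (adjusted p = 0.0558) and Aox3 in 3 of the 12 fits, with the highest adjusted p of 0.0637 without the day 7 control replicate 1. Of 23 ciliated cell genes 1 rose and 3 fell, near the background of all tested genes, and 16 were below 0. None rose without the day 5 control replicate 1. The count that fell was, over the 12 fits, 0 to 4, the lowest without day 7 KO replicate 3, day 7 control replicates 1, 2 and 3 and day 5 control replicate 2 (0 without the day 5 control replicates 1 and 2 together). Tekt1, a tektin of the axoneme, fell with a log2 change of -0.82 ± 0.23 (SE), adjusted p = 0.0272 and lost its call in 5 of the 12 fits, with the highest adjusted p of 0.0672 without the day 5 control replicate 2. Foxj1, the master regulator of ciliated cells, did not pass (0.49 ± 0.28 (SE), adjusted p = 0.229).

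Endothelial lists were near the background. Of 20 capillary genes, 2 rose and 1 fell (10% and 5%, against 7.78% and 9.05% of all tested genes), and without the day 5 control replicate 1 it was 1 and 2. Apln, the peptide of tip-like capillary cells, was at 147, 231 and 253 CPM at day 7, against 74.8, 129 and 162 CPM at day 5 (0.78 ± 0.19 (SE), adjusted p = 0.0126) and kept its call, whereas Tek, the angiopoietin receptor, fell with a log2 change of -0.57 ± 0.16 (SE), adjusted p = 0.028 and lost its call in 5 of the 12 fits, with the highest adjusted p of 0.0749 without the day 7 KO replicate 3. Cdh5, the endothelial cadherin, rose by 0.58 ± 0.19 (SE), adjusted p = 0.044 and lost its call in 8 of the 12 fits, with the highest adjusted p of 0.114 without the day 7 control replicate 3, and the adrenomedullin receptor Calcrl did not pass (0.32 ± 0.18 (SE), adjusted p = 0.23). In larger vessels the connexin Gja4 rose, at 103, 136 and 206 CPM at day 7, against 55.7, 85.5 and 101 CPM at day 5 (0.85 ± 0.18 (SE), adjusted p = 0.00796, no overlap), and the arterial connexin Gja5 fell (-0.72 ± 0.22 (SE), adjusted p = 0.0331), with its call lost in 7 of the 12 fits, with the highest adjusted p of 0.0859 without the day 7 control replicate 1. Of the 16 genes of larger and lymphatic vessels 2 rose and 1 fell, and without the day 5 control replicate 1 it was 1 and 3. Of 28 signals of septation 2 rose, Pdgfb (0.53 ± 0.16 (SE), adjusted p = 0.0328), the ligand that recruits mural cells, and Shh (0.48 ± 0.14 (SE), adjusted p = 0.034). Pdgfb lost its call in 7 of the 12 fits, with the highest adjusted p of 0.0966 without the day 7 KO replicate 3 and Shh in 10 of the 12 fits, with the highest adjusted p of 0.0883 without the day 7 control replicate 1. Without the day 5 control replicate 1 none of the 28 rose and 1 fell. Among growth and imprinted genes 4 of 24 rose and 2 fell, and without the day 5 control replicates 1 and 2 together 1 rose and none fell. Igf1, the growth factor, was at 30.2, 53.3 and 83.4 CPM at day 7, against 18.1, 28.6 and 43.6 CPM at day 5 (0.89 ± 0.23 (SE), adjusted p = 0.0184), with its call lost without the day 5 control replicate 2 (adjusted p = 0.0506). The imprinted gene Ndn rose by 0.83 ± 0.18 (SE), adjusted p = 0.0094 and kept its call, and the imprinted Peg3 fell (-1.02 ± 0.304 (SE), adjusted p = 0.0337) and lost it in 7 of the 12 fits, with the highest adjusted p of 0.096 without the day 7 control replicate 3. Of 11 retinoid genes 3 rose: Rbp4, the retinol carrier, at 14.7, 20.96 and 23.4 CPM at day 7, against 6.51, 9.24 and 12.1 CPM at day 5 (1.03 ± 0.18 (SE), adjusted p = 0.00399), the retinoic acid synthase Aldh1a2 (0.92 ± 0.25 (SE), adjusted p = 0.0219) and the binding protein Crabp1 (0.61 ± 0.17 (SE), adjusted p = 0.0228). Aldh1a2 lost its call in 4 of the 12 fits, with the highest adjusted p of 0.0694 without the day 7 KO replicate 3 and Crabp1 in 3 of the 12 fits, with the highest adjusted p of 0.0695 without the day 7 control replicate 1. The count of the 11 that rose was, over the 12 fits, 1 to 3, the lowest without day 7 control replicates 1 and 3 and day 5 control replicate 2 (1 without the day 5 control replicates 1 and 2 together).

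Several sterol synthesis genes rose. Dhcr7, a late reductase of cholesterol synthesis, was at 24.7, 35.2 and 42.4 CPM at day 7, against 12.05, 15.6 and 19.01 CPM at day 5, with the days apart and a log2 change of 1.09 ± 0.16 (SE), adjusted p = 0.00326. Erg28, a scaffold of the sterol demethylation enzymes, was at 45.6, 68.1 and 73.1 CPM at day 7, against 23.1, 31.03 and 40.8 CPM at day 5 (1.02 ± 0.15 (SE), adjusted p = 0.00326), with no overlap. Srebf2, the transcription factor of the pathway, rose by 0.86 ± 0.18 (SE), adjusted p = 0.00779. Of 19 tested members of the list 4 rose, with a median of 0.27, and the synthase Hmgcs1 did not pass (0.197 ± 0.18 (SE), adjusted p = 0.46). Dhcr7, Erg28 and Srebf2 kept their calls. The sterol count was, over the 12 fits, 3 to 5, the lowest without day 7 control replicate 1 (4 without the day 5 control replicates 1 and 2 together). Of 16 fatty acid genes 5 rose, over the fits 1 to 5, the lowest without day 7 KO replicate 3 (0 without the day 5 control replicates 1 and 2 together). Among them was Fasn (0.63 ± 0.201 (SE), adjusted p = 0.0421), the fatty acid synthase, whose call was lost in 8 of the 12 fits, with the highest adjusted p of 0.138 without the day 7 KO replicate 3.

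Of 22 nuclear genes of oxidative phosphorylation 7 rose and none fell, with a median of 0.18. The oxidative phosphorylation list had 1 gene that fell without the day 5 control replicate 1, and 3 that rose without replicates 1 and 2 of that group together. Against the letter f libraries alone 6 rose, and against the letter o libraries alone none. The most abundant members, the ATP synthase subunits Atp5f1b (0.08 ± 0.16 (SE), adjusted p = 0.747) and Atp5f1a (0.19 ± 0.14 (SE), adjusted p = 0.343), did not pass. Ndufa1 was at 46.4, 53.98 and 67.8 CPM at day 7, against 23.7, 33.1 and 43.9 CPM at day 5, with a log2 change of 0.73 ± 0.14 (SE), adjusted p = 0.0063. Ndufa4 was at 113, 173 and 199.8 CPM at day 7, against 60.3, 94.3 and 112 CPM at day 5, with one of 0.798 ± 0.17 (SE), adjusted p = 0.00793, and Cox6c at 218, 294 and 348 CPM at day 7, against 134, 174 and 212 CPM at day 5, with one of 0.73 ± 0.15 (SE), adjusted p = 0.00652. In these 3 short genes of the respiratory complexes the days were apart and the calls were kept. Ndufa12, a further complex I subunit named by the rule, behaved alike (0.87 ± 0.13 (SE), adjusted p = 0.00329). Of 13 mitochondrially encoded genes 3 rose (3 against letter f alone and none against letter o alone), mt-Nd3 with 1.01 ± 0.22 (SE), adjusted p = 0.00974, whereas mt-Co1 (0.11 ± 0.25 (SE), adjusted p = 0.796) and mt-Cytb (0.56 ± 0.22 (SE), adjusted p = 0.0818) did not pass. Without the day 5 control replicate 1 it was 1, and over the 12 fits 1 to 7, the lowest without day 7 KO replicates 2 and 3, day 7 control replicates 1, 2 and 3, day 5 KO replicate 3 and day 5 control replicates 1 and 2 (0 without the day 5 control replicates 1 and 2 together).

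Ribosomal proteins were divided, with 3 of 33 translation genes higher and 6 lower, and 1 and 5 without the day 5 control replicate 1. The count that fell was, over the 12 fits, 3 to 6, the lowest without day 7 KO replicate 3 and day 7 control replicate 3 (6 without the day 5 control replicates 1 and 2 together). Rps6 was at 154, 172 and 211 CPM at day 7, against 274, 333 and 410.3 CPM at day 5 and Rpl4 at 174, 199 and 254 CPM at day 7, against 328, 380.4 and 552 CPM at day 5, with the days apart and log2 changes of -0.902 ± 0.12 (SE), adjusted p = 0.00158 and -0.97 ± 0.14 (SE), adjusted p = 0.00295. Rpl27 rose, at 217, 307 and 335 CPM at day 7, against 139.7, 168 and 237 CPM at day 5. Rpl27 changed by 0.67 ± 0.16 (SE), adjusted p = 0.012. Rps6, Rpl4 and Rpl27 kept their calls, and after naphthalene the changes were -0.900 ± 0.202 (adjusted p = 0.023), -1.11 ± 0.17 (adjusted p = 0.00533) and 0.45 ± 0.104 (adjusted p = 0.0263). The abundant Rplp1 (0.605 ± 0.22 (SE), adjusted p = 0.0708) and Rps14 (0.35 ± 0.14 (SE), adjusted p = 0.1) did not pass. Over all genes, those that rose had a median GC content of 52.3% and a median length of 2498 bases (longest GENCODE M21 transcript of each gene), those that fell 49.3% and 3567 bases, and all tested genes 49.5% and 3003 bases. The part of transcript make-up in the calls was not tested. Other genes named for small p fell without overlap, among them Psmd4, a proteasome subunit (-0.74 ± 0.11 (SE), adjusted p = 0.00295), Kansl3, of a histone acetylating complex (-0.904 ± 0.13 (SE), adjusted p = 0.00295), and Prkab2, a subunit of AMP-activated kinase (-1.04 ± 0.15 (SE), adjusted p = 0.00295).

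Further genes named by the rule belong to none of these groups. Among the increases were Tent5b, a poly(A) polymerase (1.76 ± 0.32), Hspb7, a small heat shock protein of muscle (1.64 ± 0.32), Fam107a (1.49 ± 0.25) and the tubulin Tuba8 (1.404 ± 0.25). Nhlrc1, a ubiquitin ligase that acts on glycogen metabolism, was at 7.32, 10.2 and 11.3 CPM at day 7, against 3.04, 3.78 and 4.84 CPM at day 5. Nhlrc1 changed by 1.32 ± 0.17 (SE), adjusted p = 0.00158. Lgals1, the lectin galectin 1, was at 104, 153 and 181 CPM at day 7, against 51.2, 70.1 and 83.00 CPM at day 5 (1.06 ± 0.16 (SE), adjusted p = 0.00326), and the secretory pathway genes Ergic1 (0.94 ± 0.15) and Ckap4 (0.83 ± 0.13) rose with it. Among the decreases were the cation channel Trpm2 (-1.57 ± 0.37), the scaffold Cass4 (-1.48 ± 0.27), Garin1a (-1.54 ± 0.29), Cfap96 (-1.398 ± 0.24), Ccdc9b (-1.13 ± 0.14) and Duxbl1 (-2.07 ± 0.296), a homeobox gene with near-identical copies whose reads may be shared. The adjusted p of these 14 genes lay below 0.05 in each of the 12 fits that left out 1 library.

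**Figure D4:**
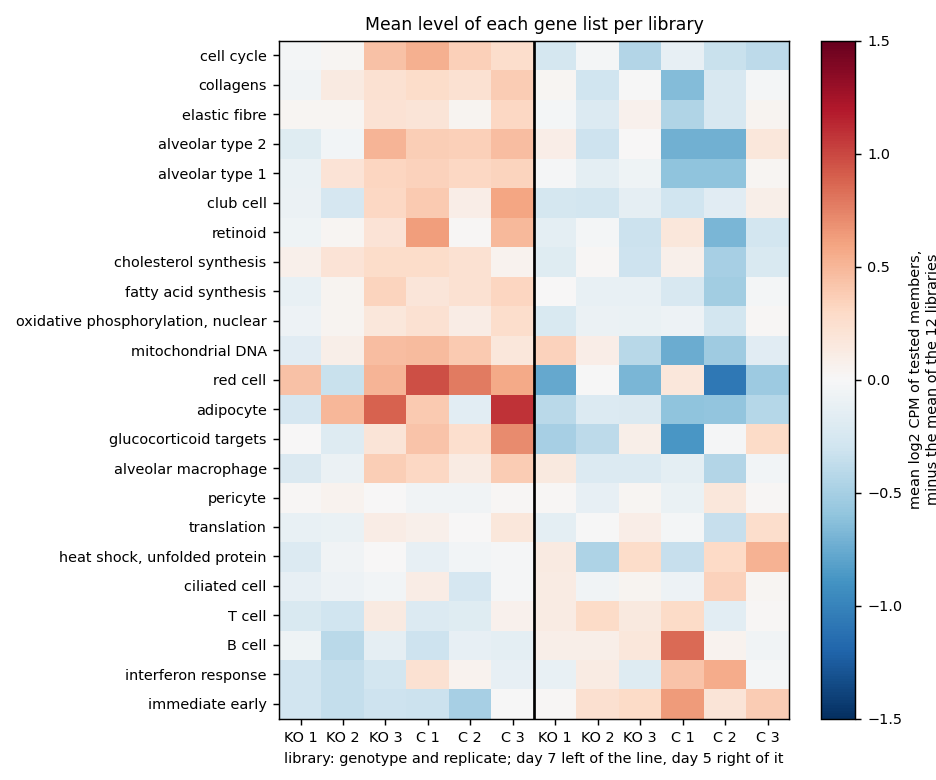
Mean log2 CPM of the tested members of 23 gene lists in each of the 12 untreated libraries, minus the mean over the 12, with day 7 left of the black line and day 5 right of it and KO libraries left of control libraries (C) within a day. The day 7 columns are mostly red in the upper lists and blue for B cell and immediate early genes, and the day 5 control replicates 1 and 2 hold the lowest alveolar levels.

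B cell genes and part of the T cell genes were lower at day 7. Of 20 B cell genes 9 fell and none rose, with a median of -0.49, and 6 fell without the day 5 control replicate 1. Cd72, a B cell surface inhibitor, was at 3.64, 5.04 and 6.11 CPM at day 7, against 7.83, 10.1 and 20.6 CPM at day 5, with the days apart and a log2 change of -1.22 ± 0.22 (SE), adjusted p = 0.00494. Cd22, a second inhibitory receptor, was at 11.2, 16.7 and 18.9 CPM at day 7, against 21.1, 26.3 and 43.3 CPM at day 5 (-0.83 ± 0.18 (SE), adjusted p = 0.00867), also apart. Ighm, the heavy chain of IgM, fell with a log2 change of -0.47 ± 0.15 (SE), adjusted p = 0.0423 and lost its call in 9 of the 12 fits, with the highest adjusted p of 0.0977 without the day 5 control replicate 1. Cd72 and Cd22 kept their calls. Over the 12 fits the count that fell was 3 to 10, the lowest without day 7 control replicate 1 (2 without the day 5 control replicates 1 and 2 together). Against letter f alone 3 fell, and against letter o alone 10.

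Of 24 T cell genes 6 fell and none rose, with a median of -0.21. Against the letter f libraries alone 2 fell, and against the letter o libraries alone 5. The letters f and o were apart at day 5 for 9 of the 24 (37.5%). The count was, over the 12 fits, 2 to 6, the lowest without day 7 control replicate 1 (3 without the day 5 control replicates 1 and 2 together). Ccr7, the receptor that guides lymphocytes to lymph nodes, was at 12.9, 17.4 and 20.1 CPM at day 7, against 20.01, 25.1 and 31.2 CPM at day 5 (-0.57 ± 0.15 (SE), adjusted p = 0.0173) and kept its call. The coreceptors Cd4 (-0.63 ± 0.18 (SE), adjusted p = 0.0272) and Cd8a (-0.63 ± 0.17 (SE), adjusted p = 0.0199) fell. Cd4 lost its call in 3 of the 12 fits, with the highest adjusted p of 0.0671 without the day 7 control replicate 1 and Cd8a without the day 7 control replicate 1 (adjusted p = 0.0538). The T cell receptor constant genes did not pass: Trbc2 was at 15.6, 22.6 and 27.5 CPM at day 7, against 15.6, 20.5 and 30.4 CPM at day 5 and Trac at 11.04, 13.6 and 20.1 CPM at day 7, against 9.900, 12.96 and 14.6 CPM at day 5. Of 15 genes of group 2 innate lymphoid cells, the subject of the series, 1 fell, Areg, the EGF receptor ligand amphiregulin (-1.05 ± 0.298 (SE), adjusted p = 0.0271). Its call was lost in 5 of the 12 fits, with the highest adjusted p of 0.0694 without the day 7 KO replicate 3. Of 9 plasma cell genes 1 rose and 1 fell, and none fell without the day 5 control replicate 1. Of 12 natural killer cell genes 1 fell (8.33%) and of the 15 innate lymphoid genes 6.67%, both under the 9.05% of all tested genes. Of 10 genes of mast cells, basophils and eosinophils 2 fell (none without the day 5 control replicates 1 and 2), the basophil protease Mcpt8 at 0, 0.188 and 0.711 CPM at day 7, against 0.354, 1.04 and 2.34 CPM at day 5 and the IgE receptor chain Ms4a2 at 0.0545, 0.221 and 0.519 CPM at day 7, against 0.469, 0.711 and 1.36 CPM at day 5. Their log2 changes were -2.29 ± 0.56 (SE), adjusted p = 0.0143 and -1.53 ± 0.38 (SE), adjusted p = 0.0145. The natural killer gene that fell was the kinase Txk (-1.11 ± 0.23 (SE), adjusted p = 0.00771). 11 of those 12 genes had the letters f and o apart at day 5. Antigen presentation genes of dendritic cells had 1 of 20 higher and 2 lower, near the background (none higher without the day 5 control replicate 1), and the class II chaperone Cd74 did not pass (0.68 ± 0.27 (SE), adjusted p = 0.0949).

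Interferon-stimulated genes were lower at day 7 as well. Of 30 tested, 8 fell and 1 rose, with a median of -0.31. None rose without the day 5 control replicate 1. The count that fell was, over the 12 fits, 5 to 11, the lowest without day 7 control replicates 1, 2 and 3, day 5 KO replicate 2 and day 5 control replicate 2 (1 without the day 5 control replicates 1 and 2 together). Stat2, a transcription factor of the response, was at 49.8, 58.98 and 75.2 CPM at day 7, against 86.8, 98.5 and 238 CPM at day 5, with no overlap and a log2 change of -0.997 ± 0.21 (SE), adjusted p = 0.00833. The antiviral GTPases Mx1 (-1.32 ± 0.33 (SE), adjusted p = 0.0163) and Mx2 (-1.16 ± 0.26 (SE), adjusted p = 0.0105) and the synthetase Oas1a (-0.71 ± 0.16 (SE), adjusted p = 0.0117) fell and kept their calls with Stat2. Ifi27l2a rose (0.81 ± 0.25 (SE), adjusted p = 0.0389) and lost its call in 8 of the 12 fits, with the highest adjusted p of 0.144 without the day 7 KO replicate 3, and the tether Bst2 did not pass (0.36 ± 0.15 (SE), adjusted p = 0.105). Alveolar macrophage genes leaned upward, with 3 of 20 higher: Fabp4 at 11.4, 20.8 and 32.9 CPM at day 7, against 9.27, 11.5 and 14.4 CPM at day 5 (0.89 ± 0.22 (SE), adjusted p = 0.0135, call kept), Chil3 (0.73 ± 0.204 (SE), adjusted p = 0.025) and Olr1 (0.71 ± 0.200 (SE), adjusted p = 0.0262). Chil3 lost its call in 5 of the 12 fits, with the highest adjusted p of 0.0762 without the day 7 control replicate 1 and Olr1 in 4 of the 12 fits, with the highest adjusted p of 0.0803 without the day 7 KO replicate 3, and the list's count was, over the 12 fits, 1 to 5, the lowest without day 7 KO replicate 3, day 7 control replicate 1 and day 5 control replicate 2 (1 without the day 5 control replicates 1 and 2 together). The list's most abundant gene, Flt1 (-0.35 ± 0.14 (SE), adjusted p = 0.0976), is mainly endothelial.

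Red cell genes were higher at day 7. Of 14 tested, 8 rose and none fell, all 14 were above 0 and the median was 0.90. Hbb-bs, a beta globin, was at 4364, 10593 and 12974 CPM at day 7, against 1698, 3272 and 4518 CPM at day 5. Hbb-bs changed by 1.56 ± 0.28 (SE), adjusted p = 0.00453. Its reads may be shared with the near-identical Hbb-bt (1.53 ± 0.36 (SE), adjusted p = 0.0133). Slc4a1, the anion exchanger of the red cell membrane, was at 35.3, 53.02 and 95.04 CPM at day 7, against 12.9, 21.7 and 37.8 CPM at day 5. Slc4a1 changed by 1.28 ± 0.25 (SE), adjusted p = 0.00626. The 3 kept their calls. Over the 12 fits the count was 4 to 10, the lowest without day 7 control replicates 1 and 2, day 5 KO replicate 3 and day 5 control replicates 2 and 3 (4 without the day 5 control replicates 1 and 2 together). It was 7 against the letter f libraries and 1 against the letter o libraries, and f and o did not overlap at day 5 for 9 of the 14. Haemoglobin genes took 0.702 to 2.14% of all counts at day 7 and 0.387 to 1.49% at day 5. Without Rn18s-rs5, haemoglobin and mitochondrial genes 3072 genes passed in all, against 3110.

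Of 8 tested adipocyte genes 4 rose, with a median of 1.06: Adipoq, the hormone adiponectin, was at 0.782, 3.08 and 4.03 CPM at day 7, against 0.485, 1.06 and 1.71 CPM at day 5. Adipoq changed by 1.397 ± 0.36 (SE), adjusted p = 0.0174. Cfd, the adipocyte serine protease adipsin, was at 2.56, 6.25 and 21.7 CPM at day 7, against 1.54, 2.43 and 3.97 CPM at day 5. Cfd changed by 1.800 ± 0.44 (SE), adjusted p = 0.0148. The summed level of the list was 38.3 to 90.9 CPM in day 7 lungs and 42.0 to 71.5 CPM in day 5 lungs, ranges that overlapped. The count that rose was, over the 12 fits, 2 to 5, the lowest without day 7 KO replicate 3 (0 without the day 5 control replicates 1 and 2 together). Car3, a carbonic anhydrase of fat and muscle, was named by the rule, at 5.69, 13.1 and 18.6 CPM at day 7, against 1.45, 4.43 and 6.85 CPM at day 5. Car3 changed by 1.605 ± 0.34 (SE), adjusted p = 0.00849. Cfd lost its call without the day 7 KO replicate 3 (adjusted p = 0.0576). Upk3b, a mesothelial marker, was at 36.9, 57.9 and 74.9 CPM at day 7, against 11.1, 27.6 and 36.9 CPM at day 5. Upk3b changed by 1.15 ± 0.27 (SE), adjusted p = 0.0117. It was the 1 of 10 mesothelial genes to rise, a share (10%) near the background, and 3 of the 10 were below 0. The part of dissected fat or pleura in other results was not tested. Lars2 (1.52 ± 0.34) and Mir6236 (1.57 ± 0.35), which can collect ribosomal RNA reads, rose. Rn18s-rs5 itself did not pass (log2 change 0.92, adjusted p = 0.151), and its highest share, 8.12%, was that of the day 7 KO replicate 1.

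The 2 genotypes were read apart as well. In control lungs 2773 of 18475 genes passed between the days (15%), 1156 higher (6.26%) and 1617 lower (8.75%). In KO lungs 2 passed (0.0108%), both lower, with 2058 genes at an unadjusted p under 0.05; DESeq2 called 42. The difference between the genotypes, tested as an interaction, passed for none of 18475 genes (0%) in edgeR and none in DESeq2, with 1108 genes at an unadjusted p under 0.05 and a smallest adjusted p of 0.741. The different counts of calls are therefore not shown to be a difference in response. Over the 1438 genes called higher the median log2 change was 0.54 in KO lungs and 0.84 in control lungs. Over the 1672 called lower it was -0.49 in KO lungs and -0.91 in control lungs. All of these genes had the same sign in both genotypes, which their choice on both genotypes together favours. Atf3 changed by -2.06 ± 0.25 in KO and -2.26 ± 0.25 in control lungs, and Nr4a1 by -2.05 ± 0.33 and -2.47 ± 0.34. Zbtb16 changed by 1.41 ± 0.37 in KO and 3.15 ± 0.39 in control lungs (interaction adjusted p = 0.741), and Alas2, the first enzyme of red cell haem synthesis, by 0.49 ± 0.47 and 2.12 ± 0.49 (interaction adjusted p = 0.741). With both genotypes together Alas2 rose by 1.303 ± 0.41 (SE), adjusted p = 0.0414, a call that was lost in 9 of the 12 fits, with the highest adjusted p of 0.12 without the day 7 KO replicate 3. The control count itself rested on single libraries, from 371 without the day 5 control replicate 2 to 5067 without the day 5 control replicate 3.

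The same day contrast in 11 lungs treated with naphthalene shares no library with the untreated one, but its day 7 libraries again carry the letter p. There 999 of 19054 genes passed (5.24%), 420 higher (2.2%) and 579 lower (3.04%). Of the 1424 genes called higher in untreated lungs and tested after naphthalene, 1364 (95.8%) had a positive change and 214 passed. Of the 1656 called lower, 1568 (94.7%) had a negative change and 357 passed. None passed in the opposite direction. Over all 19054 genes tested after naphthalene the median log2 change was 0.02. The share of all tested genes with each sign was not counted. Nr4a1, Atf3 and Il1b did not pass there: after naphthalene, Nr4a1 had a log2 change of -0.004 ± 0.32 (adjusted p = 0.996), Atf3 of -0.52 ± 0.17 (0.0799) and Il1b of 0.66 ± 0.398 (0.341). Genes such as Rpl4, Kansl3 (-0.79 ± 0.12, adjusted p = 0.0063) and Erg28 (0.78 ± 0.12, adjusted p = 0.00533) passed in both.

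The untreated lungs with the day label 2 give a further point. Their mean lay between those of days 5 and 7 for 1150 of the 1438 genes called higher and for 1445 of the 1672 called lower. It was nearer to the day 7 mean in 20% and 17.7% of the called genes. The choice of these genes on a difference between days 5 and 7 favours a day 2 mean in between. The same share over all tested genes was not counted. For Atf3 the means at days 2, 5 and 7 were 15.8, 21.9 and 4.94 CPM, for Nr4a1 220.3, 195 and 40.6 CPM and for Zbtb16 44.8, 26.7 and 138 CPM. Of these 3 genes Nr4a1 and Atf3 had their lowest mean, and Zbtb16 its highest, at day 7. At day 2 Nr4a1 and Atf3 ranged from 52.3 to 517 CPM and from 5.57 to 26.9 CPM. Collagen and elastin genes had another course: Col1a1 averaged 1634, 1038 and 1806 CPM and Eln 10039, 5628 and 7049 CPM at the same days, with day 5 the lowest. Hbb-bs averaged 2079.8, 3256 and 9716 CPM, higher at each label. Day 2 against the later days was not tested here.

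**Figure D5:**
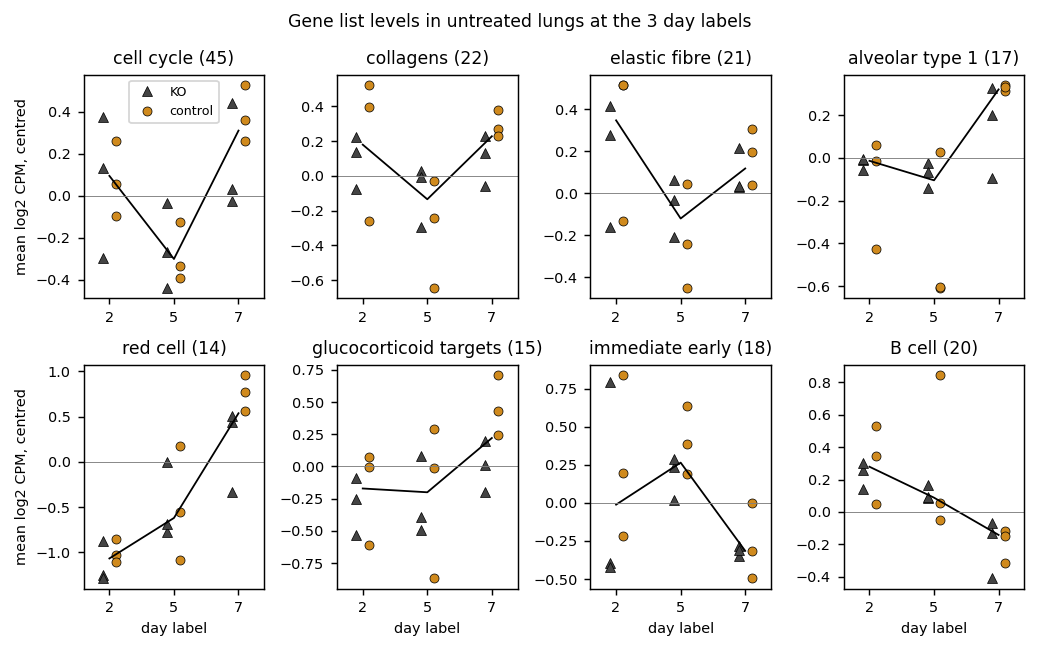
Mean log2 CPM of the tested members of 8 gene lists, minus the mean of the 12 day 5 and day 7 libraries, in the 18 untreated libraries against the day label (2, 5, 7), triangles for KO and circles for control lungs and black lines for the median of each day. Red cell genes climb over the 3 labels and B cell genes decline. The medians of collagen and elastic fibre genes are lowest at day 5, with libraries that overlap those of the other days. Immediate early genes are lowest at day 7 and spread widely at day 2.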

How the data were processed

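Whole-lung RNA of 35 libraries was measured with an mRNA kit, and 12 untreated libraries of day labels 7 and 5 were compared. The values are whole-number read counts per gene, as the authors deposited them. Per the submitters' processing notes GRCm39 and DESeq2 were used, with no role given, and no source used here names the aligner, the counter, the annotation or the strand setting. Antisense and near-identical genes can therefore not be told apart. Genes were filtered with filterByExpr and tested with edgeR 4.0.16 (TMM scaling, robust quasi-likelihood F-test, genotype as covariate, Benjamini-Hochberg adjustment at 0.05) in R 4.3.3; control, KO and interaction values came from a fit of 4 group means, and the treated comparison from its own 11 libraries. CPM are counts scaled to the library total times its TMM scaling factor. DESeq2 1.42.0 and limma 3.58.1 gave alternatives. The fit of both genotypes was tested on simulated data.

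The members and gene lists were chosen with earlier results of these data known. Named genes were the 15 largest changes and 10 smallest p-values in each direction, with a mean of at least 5 CPM and an adjusted p under 0.05 also without the day 5 control replicate 1, which passed over 742 called genes. From the lists described, the rule took the member of smallest p each way and the 2 most abundant, with exceptions for lists treated briefly. Other members were chosen after their values were seen. Some genes that the rule or lists hold are not reported here. Promoters come from a RefSeq table on GRCm38.p6 and were matched by symbol. They are not on the labels' build.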

Additional observations from a re-analysis of the deposited data

Results flagged for a closer look

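Of 500 groups of 6 values examined (named genes, library measures and list sums, by day), 44 held 1 library whose gap to the nearest other value exceeded Dixon's critical share of the group's range. Chance gives such a gap in about 1 in 20 groups.

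The day 7 KO replicate 1 held 16 of these. It was high in Rn18s-rs5, at 83800 CPM on the TMM scale and 8.12% of its plain library total. It was also high in Mir6236 (1050 CPM), Per3 (173 CPM), Ccdc9b (59.1 CPM), Kansl3 (54.9 CPM), Garin1a (5.9 CPM) and Trpm2 (3.98 CPM). It was low in Hopx (862 CPM), Atf4 (301 CPM), Fbln5 (217 CPM), Ckap4 (99.6 CPM), Erg28 (45.6 CPM), Wee1 (32.9 CPM), Nhlrc1 (7.32 CPM) and the summed alveolar macrophage genes (594 CPM). The day 7 KO replicate 2 was high in Gja5 (106 CPM), Nr4a2 (19.3 CPM), Bmal1 (9.42 CPM) and Apold1 (7.4 CPM). At day 7 the control replicate 3 was high in Fos (36.3 CPM) and the control replicate 1 in mt-Nd3 (36.7 CPM).

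At day 5 the control replicate 1 was high in P2ry12 (156 CPM), Cd22 (43.3 CPM), Stmn1 (213 CPM), and the summed microglial (931 CPM), B cell (1080 CPM) and skeletal muscle genes (14.3 CPM). The day 5 control replicate 2 was high in Stat2 (238 CPM), Ciart (140 CPM), Garin1a (21.5 CPM), Tekt1 (9.14 CPM) and the summed mast cell, basophil and eosinophil genes (73.6 CPM), and low in Fbln1 (18.3 CPM), Olr1 (2.28 CPM) and Aurkb (2.15 CPM). The day 5 KO replicate 1 was high in Rpl4 (552 CPM), Tek (433 CPM), Adamts1 (424 CPM), Aox3 (51.2 CPM), Atf3 (28.9 CPM) and the mitochondrial share (1.57%), and low in Bst2 (55.9 CPM). The day 5 KO replicate 2 was high in Hmmr (1.54 CPM).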

How the results depend on the processing

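The count of 3110 calls was within 1.5 times under DESeq2 size factors (3054), no filter (3869), a filter of 1 CPM in 6 libraries (3053), DESeq2 (4104), limma-voom (2935), no abundant transcripts (3072), all 35 libraries (4460) and 4 group means (3376). It was 2054 against the day 5 letter f libraries and 1943 against the 2 letter o libraries, an alternative chosen after seeing the data, as was leaving out both the day 7 KO replicate 1 and the day 5 control replicate 1 (2550, and 914 in controls) and leaving out the day 5 control replicates 1 and 2 (954, with 83 of 151 named called genes still called). Leaving out 1 library gave 1457 to 3803 calls, with the lowest values without the day 7 control replicate 1 (1457), the day 7 KO replicate 3 (1475), the day 5 control replicate 2 (1627) and the day 7 control replicate 3 (1651). Control lungs gave 371 to 5067, KO lungs 0 to 3, the interaction 0 to 26 (26 without the day 5 control replicate 3) and treated lungs 174 to 1502 (174 without the treated day 7 KO replicate 1). KO lungs gave 2 calls, 111 with no filter, 42 with DESeq2, and 1 with DESeq2 size factors, the stricter filter, limma-voom, the replicate block and both libraries left out. With no filter the interaction gave 124 calls, and treated lungs 1617, against 999; DESeq2 gave 1898 there.

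Same-numbered libraries of the 2 days had correlations of deviations of -0.209, 0.103 and 0.295 in KO and 0.0642, 0.0195 and 0.0623 in control lungs. Libraries with different numbers had -0.397 to 0.291 in KO and -0.107 to 0.0524 in control lungs. With 3 libraries per group these values cannot show whether the numbers pair the libraries. With the replicate block 4104 genes passed in both genotypes, 4159 in controls, 1 in KO, none for the interaction and 529 after naphthalene.

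Of 151 called genes named, 120 kept their call against letter f alone and 74 against letter o alone. The called genes that changed sign did so against letter o alone: Bmal1 (0.383), Hspa1a (0.182), Hspa1b (0.588), Hsph1 (0.0922) and Nfil3 (0.236). Genes that had not passed crossed 0 as well. Against letter o alone these were Hmgcs1 (-0.113), Hspa8 (0.434), Inmt (-0.0654), Jun (0.0403), Nr1d2 (-0.502), Per3 (-0.834), Pdgfra (0.219), Pdgfrb (0.135), Per1 (0.0259), Tef (-0.214) and Vegfa (-0.00706). Against letter f alone they were Atf4 (-0.041), Atp5f1b (-0.0377), Col4a1 (-0.0605), Eln (-0.0448), Trbc2 (0.207) and mt-Co1 (-0.154). Atf4 was at -0.00402 with no filter, Trbc2 at 0.0678 without both libraries, and Per1 at 0.00321 with DESeq2 and with its size factors and at 0.00385 with the stricter filter. Per3, at 9.08e-05 with all 12 libraries, was at -0.0144 with no filter, -0.000757 without abundant transcripts, -0.00694 with all 35 libraries and -2.67e-05 with 4 group means. It passed in opposite directions against the 2 letters, with 0.696 (adjusted p = 0.0249) against letter f alone and -0.834 (adjusted p = 0.021) against letter o alone. Without the day 5 control replicates 1 and 2, Atf4 (-0.0354), Atp5f1a (-0.00642), Atp5f1b (-0.178), Col4a1 (-0.177), Jund (0.147), Per1 (0.0376), Trbc2 (0.0581) and mt-Co1 (-0.189) crossed 0. With 1 library left out, Atf4 ranged over -0.0436 to 0.0513, Atp5f1b -0.0143 to 0.185, Inmt -0.0796 to 0.0673, Per1 -0.0982 to 0.08 (-0.107 without both the day 7 KO replicate 1 and the day 5 control replicate 1), Per3 -0.158 to 0.326, Trbc2 -0.122 to 0.0778, Vegfa -0.04 to 0.0654 and mt-Co1 -0.0643 to 0.292. The cause of these changes was not tested.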
